A study of Mus musculus with 10 samples.

Results

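The probes for miR-375 and miR-7 were followed across 10 one-colour mouse miRNA arrays. They were chosen by name: every probe whose identifier has the stem mmu-miR-375, mmu-miR-7a with or without a copy number, or mmu-miR-7b, from either arm of the hairpin. The rule found 7 probes among the 1892 miRNAs of the array: mmu-miR-375-3p, mmu-miR-375-5p, mmu-miR-7a-5p, mmu-miR-7a-1-3p, mmu-miR-7a-2-3p, mmu-miR-7b-5p and mmu-miR-7b-3p, written below without the species prefix. Each was printed at 2 spots. RNA came from 5 samples titled T-C cell and 5 titled control cell. The labels of all 10 describe the material as sle liver from male mice and name a mouse liver cell culture protocol. T-C cell samples carry the source label Col-/- and control cell samples the source label Control Col. The treatment label names 0.5 mg TN-CF for 100000 T-C cells in a dish over 24 hours, beside a control. Source and treatment change together between the groups, so they cannot be told apart, and the labels leave T-C, TN-CF, Col and sle unexplained. Whether replicates are separate animals or cultures is not labelled, so every p-value rests on a spread among arrays that may be technical.

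A miRNA hairpin has a 5p and a 3p arm. The arm that is loaded into Argonaute and pairs with messenger RNAs is called the guide and the other the passenger, and bases 2 to 8 of the guide, the seed, lead target recognition. miR-375-3p is the guide of the Mir375 hairpin, is abundant in pancreatic islets and other endocrine cells, and restrains insulin secretion. miR-7a-5p and miR-7b-5p are the guides of the miR-7 hairpins and are known from pancreatic endocrine cells, pituitary and brain. In liver neither family is a marker of hepatocytes, whose dominant miRNA is miR-122-5p.

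The probe sequences are given because the family resemblance decides which probes could share signal and which arm each reports. The array's target sequences follow, 5′ to 3′, with the seed in capitals, first the guides and then the passengers.
miR-375-3p: uUUGUUCGuucggcucgcguga
miR-7a-5p: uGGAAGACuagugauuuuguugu
miR-7b-5p: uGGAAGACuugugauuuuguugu
miR-375-5p: gCGACGAGccccucgcacaaac
miR-7a-1-3p: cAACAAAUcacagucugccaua
miR-7a-2-3p: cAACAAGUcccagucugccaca
miR-7b-3p: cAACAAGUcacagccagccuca
Both miR-7 guides share a seed that no other miRNA of the array has, and over the 23 bases of the array sequence they differ by 1 substitution, A10U, counted from the 5′ end of miR-7a-5p. The passengers differ more. From miR-7b-3p to miR-7a-2-3p there are 4 substitutions (A10C, C14U, A16U and U20A), all outside the shared seed. From miR-7b-3p to miR-7a-1-3p there are 5 (G7A, C14U, A16U, U20A and C21U), of which G7A lies in the seed. The closest probe to miR-375-3p differed at 9 of 22 bases.

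On GRCm38, miR-375-3p matched the Mir375 hairpin on chromosome 1 (74900661 to 74900682, minus strand), where no other gene is annotated. miR-7a-5p is made from 2 hairpins and its probe cannot tell them apart. One is Mir7-1, in an intron of Hnrnpk on chromosome 13 (58392841 to 58392863, minus strand), whose passenger is miR-7a-1-3p (58392800 to 58392821). The other is Mir7-2 on chromosome 7 (78888295 to 78888317, plus strand), outside other annotated genes, whose passenger is miR-7a-2-3p (78888335 to 78888356). miR-7b-5p (56243017 to 56243039) and miR-7b-3p (56243055 to 56243076) lie on the plus strand of chromosome 17 in Mir7b, also outside other annotated genes. The GENCODE Mir7b hairpin is printed with its arms in capitals, since the group difference found here fell on its 3p arm.
Mir7b: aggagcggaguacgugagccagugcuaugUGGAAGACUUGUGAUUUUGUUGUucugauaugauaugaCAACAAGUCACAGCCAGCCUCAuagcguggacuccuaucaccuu

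The arrays differed in background. Detection required a spot mean above the mean plus 3 SD of the 16 blank spots on that array, and this limit ran from 64.0 intensity units (control cell replicate 5) to 474 (T-C cell replicate 3). Between 189 and 1314 miRNAs were detected per array. With 5 arrays in a group, precision is set by their number. T-C cell replicate 3 stands apart for these members: of the 7 probes only miR-375-3p was detected there, and values without it are given where they matter. T-C cell replicate 1 lay farthest out on the first principal component of the tested miRNAs, at −15.8 against −5.10 to 8.05 for the other arrays. The headers number the arrays, and the control cell numbers lie between that of T-C cell replicate 1 and the numbers on T-C cell replicates 2 to 5, with no explanation of what is numbered. A batch along those numbers cannot be told apart from the groups. Of the liver markers, miR-122-5p was above the limit on 1 of 10 arrays, with raw intensities from 57.8 to 193, while miR-192-5p and miR-194-5p, shared by liver and gut epithelium, were detected on all 10. The remaining liver marker, miR-148a-3p, was also detected on all 10.

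Of the 7 probes, 4 were detected on at least 5 arrays and were tested: miR-375-3p, miR-7a-5p, miR-7a-1-3p and miR-7b-3p. For the whole array that share was 25.2%. Levels are given on the scale of log2(intensity + 50) after cyclic loess normalization between arrays, and each difference is the T-C cell mean less the control cell mean, in log2 units. The test was limma with Benjamini-Hochberg adjustment over all 476 tested miRNAs and a threshold of 0.05. By it 37 of 476 miRNAs (7.77%) passed, 7 higher in T-C cell samples (1.47%) and 30 lower (6.3%). Of the 4 tested members 1 fell, none rose and 3 did not pass. The member that fell was miR-7b-3p, the passenger of Mir7b. Across the 4 tested members the differences were −0.51, 0.07, −0.08 and −1.09, in the order just named, and over all tested miRNAs the median difference was 0.02.

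mmu-miR-375-3p was the brightest of the 7 probes and the one detected on all 10 arrays. Its raw intensity on T-C cell replicates 1 to 5 was 2262, 1718, 903, 3072 and 2139. On control cell replicates 1 to 5 it was 2838, 2502, 3457, 1490 and 3095. The groups overlapped, and the lowest value of each, on T-C cell replicate 3 and control cell replicate 4, stood well under its other arrays. By brightness miR-375-3p ranked between 46 and 108 of 1892 probes, with median ranks of 78 (T-C cell) and 60 (control cell). The raw intensity ran from 1.91 times the detection limit, on T-C cell replicate 3, to 48.4 times, on control cell replicate 5. The normalized level was 10.84 ± 0.44 across T-C cell and 11.35 ± 0.42 across control cell arrays (n = 5 each, SD). The difference of −0.51 (SE 0.25, 95% interval −1.05 to 0.03, limma adjusted p = 0.311) did not pass. By the exact two-sided permutation test on the same levels the unadjusted p was 0.103. The interval reaches from a level 2.08 times lower in T-C cell samples to one slightly higher. Without T-C cell replicate 3 the difference was −0.35, and without control cell replicate 4 it was −0.69 (limma adjusted p = 0.0764), the largest of the 24 alternative fits. Without T-C cell replicates 1 and 3, an omission chosen after seeing the data, it was −0.22. miR-375-5p, the passenger, exceeded the detection limit on 0 of 10 arrays, with raw intensities from 61.8 to 220. The 3p probe was the brighter one on 10 of 10 arrays. Since the 5p probe was at background, the ratio of these arms is in effect one of the 3p probe against background.

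**Figure D1:**
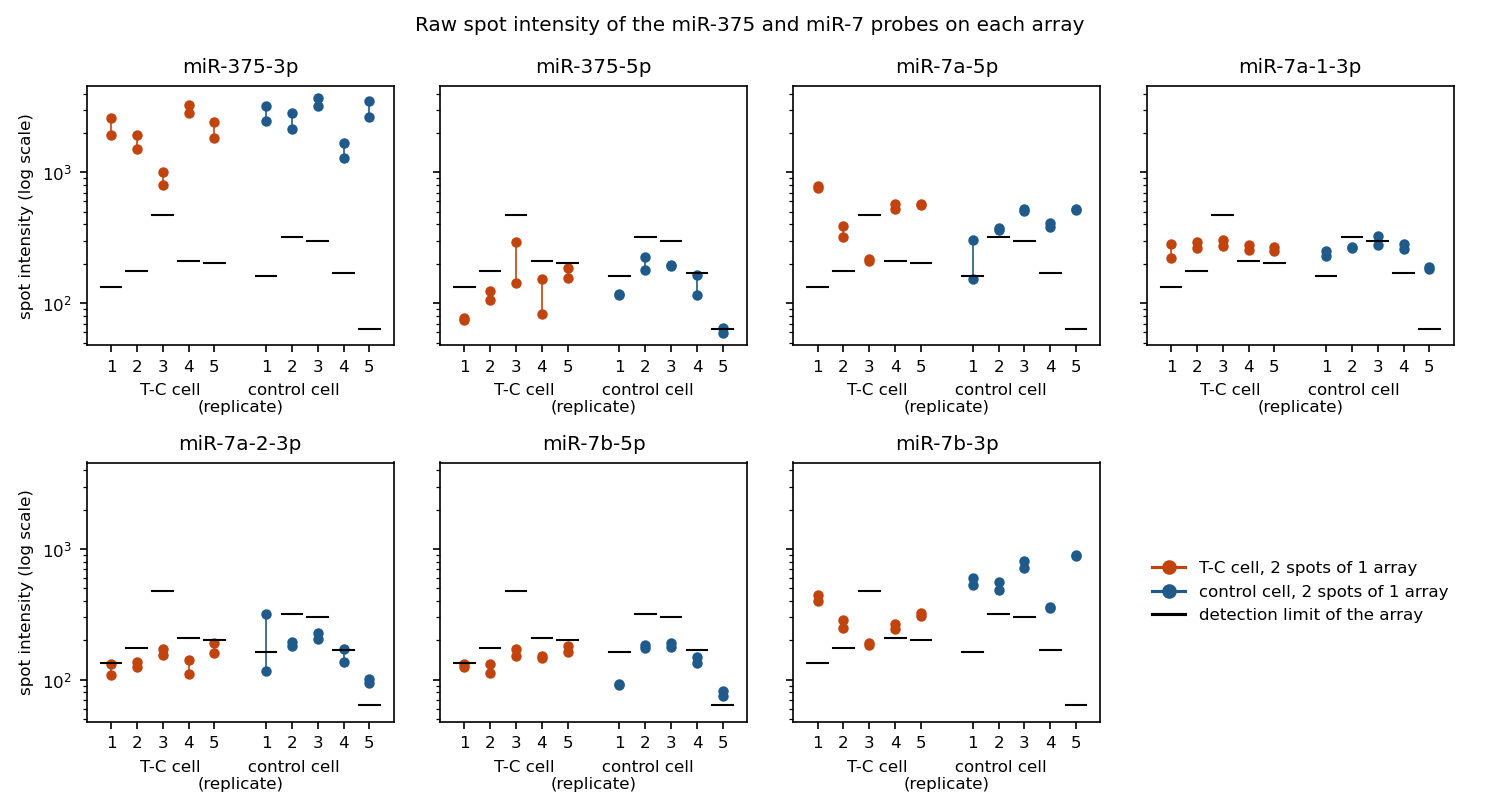
Raw spot intensity (log axis) of the 7 probes on each of the 10 arrays, with the 2 spots of a probe joined by a line and the detection limit of each array as a black bar. miR-375-3p lies above the limit on all 10 arrays, miR-375-5p, miR-7a-2-3p and miR-7b-5p lie at or under it on most, and on T-C cell replicate 3, with a limit of 474, every miR-7 probe is under it.

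mmu-miR-7a-5p, the guide made from Mir7-1 and Mir7-2, was detected on 9 arrays. Its raw intensity on T-C cell replicates 1 to 5 was 769, 358, 215, 552 and 566. On control cell replicates 1 to 5 it was 230, 369, 518, 395 and 519. The groups overlapped over most of their range, with the highest value on T-C cell replicate 1 and the lowest on T-C cell replicate 3, where it was not detected. The normalized level was 8.96 ± 0.42 across T-C cell and 8.89 ± 0.41 across control cell arrays (n = 5 each, SD). The difference was 0.07 (SE 0.25, 95% interval −0.47 to 0.61, limma adjusted p = 0.929). Its sign was not stable and was negative in 6 of 24 alternative fits, among them quantile normalization (−0.06) and blanks subtracted to a floor of 1 (−1.04). On control cell replicate 1 the 2 spots read 154 and 306, and with the second spot alone on every array the difference was −0.05. miR-7a-5p was thus not shown to differ, and the interval allows a difference of up to 0.61 upward or 0.47 downward.

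mmu-miR-7b-5p, the near-identical guide of Mir7b, was at background. It exceeded the limit on 1 of 10 arrays, control cell replicate 5, by 1.23 times. Its raw intensity on T-C cell replicates 1 to 5 was 128.8, 123, 161, 149 and 173. On control cell replicates 1 to 5 it was 92.2, 179, 185, 140.9 and 78.6. These values were 0.340 to 1.23 times the limit of their array, and the groups overlapped. It was not tested in the comparison of 476; with all 1892 miRNAs tested, its difference of 0.04 had a 95% interval of −0.29 to 0.36 (limma adjusted p = 0.993). Although the guides differ by A10U alone, the miR-7a-5p probe was bright on arrays where the miR-7b-5p probe was not: on T-C cell replicate 1 they read 769 and 128.8. How much of either signal came from the other guide was not tested.

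mmu-miR-7b-3p, the passenger of the same hairpin, was lower in T-C cell samples. Its raw intensity on T-C cell replicates 1 to 5 was 421, 267, 188, 257 and 316. On control cell replicates 1 to 5 it was 563, 520, 761, 358 and 893. The raw groups overlapped by 1 array on each side: T-C cell replicate 1 lay above control cell replicate 4. After normalization they did not overlap, T-C cell samples lying at 8.03 to 8.64 and control cell samples at 8.76 to 10.10. Nor did the brightness ranks, which ran from 274 to 1791 on T-C cell arrays and from 149 to 254 on control cell arrays. The rank of 1791 came from T-C cell replicate 3, and the share of all miRNAs with ranks without overlap was not computed. Of the 476 tested miRNAs, 3.78% had normalized groups without overlap, and 1.89% did so with T-C cell samples lower. None of the other tested members did.

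The normalized level of miR-7b-3p was 8.35 ± 0.28 across T-C cell arrays against 9.44 ± 0.50 across control cell arrays (SD, n = 5 each). The difference of −1.09 (SE 0.24, 95% interval −1.62 to −0.56, limma adjusted p = 0.0400) is a level 2.13 times lower (1.47 to 3.07) on the scale with 50 added, and all 5 T-C cell samples lay under the lowest control cell sample. By p it was 8th of the 476 miRNAs. The exact two-sided permutation test gave an unadjusted p of 0.00794, the smallest that 5 against 5 can give. On T-C cell replicate 3 its intensity of 188 was under the mean of the blank spots (223); without that array the difference was −1.04 (limma adjusted p = 0.0470).

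The call rested on single arrays and on parts of the processing. It ended when T-C cell replicate 4 was left out (limma adjusted p = 0.0883) and on leaving out control cell replicate 1, 2, 3 or 5 (0.0940, 0.0844, 0.0801 and 0.0786 in that order), while over all 10 single omissions the difference stayed between −1.26 and −0.93. It also ended under median centring (−1.06, limma adjusted p = 0.326), with blanks subtracted to a floor of 1 (−2.97, adjusted p = 0.207) and with all 1892 miRNAs tested (adjusted p = 0.189). Among the other scalings, it held without normalization (−0.95, limma adjusted p = 0.0388) and with quantile normalization (−1.05, limma adjusted p = 0.0350). Omitting both T-C cell replicates 1 and 3, chosen after seeing the data, gave −1.04 (limma adjusted p = 0.0879). Over the 24 alternative fits the adjusted p ran from 0.00587 to 0.326.

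**Figure D2:**
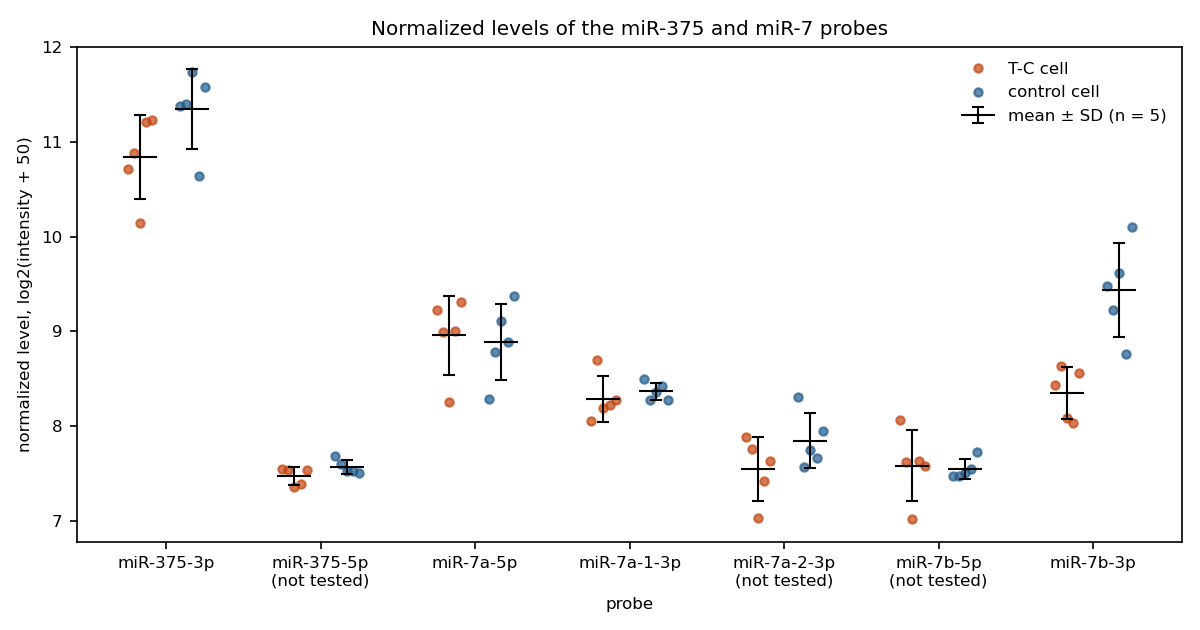
Normalized levels, log2(intensity + 50), of the 7 probes in T-C cell (orange) and control cell (blue) samples, 1 point per array, with the mean ± SD of 5 arrays in black. The groups are separate for miR-7b-3p, 8.03 to 8.64 against 8.76 to 10.10, and overlap for the other 6 probes.

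The passengers of the other miR-7 hairpins were not called. miR-7a-1-3p was detected on 8 arrays and had a raw intensity from 254 to 290 on T-C cell and from 186 to 302 on control cell arrays. Its normalized level was 8.29 ± 0.24 against 8.37 ± 0.09 (SD, n = 5 each). The difference was −0.08 (SE 0.13, 95% interval −0.36 to 0.20, limma adjusted p = 0.821). The sign of this small difference turned positive without normalization (0.09) and without T-C cell replicates 1 and 3 (0.02). miR-7a-2-3p, which has the same seed as miR-7b-3p, was above the limit on 2 arrays, both control cell, and was not tested. Its raw intensity ran from 120 to 175 on T-C cell and from 98.5 to 216.9 on control cell arrays. Its level was 7.54 ± 0.34 against 7.85 ± 0.29, and the highest control cell value, on replicate 1, came from spots of 116 and 318. With all 1892 miRNAs tested its difference was −0.30 (95% interval −0.68 to 0.07, limma adjusted p = 0.903).

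Brightness of different probes is not a measure of relative amount, since each probe binds its target differently, but the order of the levels can be compared between groups. In control cell samples the normalized levels ran from miR-375-3p (11.35) through miR-7b-3p (9.44), miR-7a-5p (8.89), miR-7a-1-3p (8.37) and miR-7a-2-3p (7.85) to miR-375-5p (7.57) and miR-7b-5p (7.54). Each neighbouring pair in that order overlapped in range except the first, miR-375-3p and miR-7b-3p. In T-C cell samples miR-7b-3p (8.35) stood below miR-7a-5p (8.96) and level with miR-7a-1-3p (8.29). The raw ratio of miR-7b-3p to miR-7a-5p needs no scaling between arrays, but the background of each array was not taken out of it. It was 0.466 to 0.872 on T-C cell and 0.906 to 2.45 on control cell arrays. Those ranges did not overlap, whereas the ratios of miR-7b-3p to each of the other 5 members did, among them that to miR-375-3p (0.0837 to 0.208 against 0.198 to 0.288). The share of such ratios without overlap over all miRNAs was not computed. The upper bound of the T-C cell range, 0.872, came from replicate 3, where both probes (188 and 215) read less than the mean of the blank spots (223). The upper bound of the control cell range came from replicate 1, with its uneven miR-7a-5p spots.

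The arms of each hairpin were then compared within the array. For each of 340 hairpin arm pairs with at least 1 tested arm, the log2 ratio of 5p over 3p was tested between groups with limma, which takes the binding of each probe out of the group comparison. Of these pairs 31 passed (9.12%), 28 with a ratio higher in T-C cell samples (8.24%) and 3 with a lower one (0.882%). Of the 4 pairs of miR-375 and miR-7, that of miR-7b passed and the other 3 did not. The pairs of miR-7a-1 and miR-7a-2 share the miR-7a-5p probe.

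For miR-7b the passenger probe was brighter than the guide probe on 10 of 10 arrays. The guide probe was under the limit on 9 of them, and on T-C cell replicate 3 both probes read less than the mean of the blank spots, so the ratio is in effect one of the passenger over background. The normalized log2 ratio of 5p over 3p was −0.77 ± 0.35 across T-C cell and −1.90 ± 0.44 across control cell arrays (n = 5 each, SD), without overlap, as for 5% of the pairs. It was higher by 1.13 in T-C cell samples (SE 0.24, 95% interval 0.61 to 1.64, limma adjusted p = 0.0264) and 6th by p of the 340 pairs. Since the guide was at background in both groups, the change of the ratio is that of the 3p probe and says little about the guide. Like the call of the 3p probe, it ended on leaving out any 1 of these 5 arrays (replicate 4 of T-C cell, replicates 1, 2, 3 and 5 of control cell), with limma adjusted p from 0.0578 to 0.0728, and the difference stayed between 1.02 and 1.30 over the 10 single omissions. It ended as well without normalization and under median centring (limma adjusted p = 0.126 in both), with blanks subtracted (0.137) and with all pairs of the array tested (0.111).

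For miR-7a the guide was the brighter arm. In raw intensity it was so against miR-7a-2-3p on 10 of 10 arrays and against miR-7a-1-3p on 8, the exceptions being T-C cell replicate 3 and control cell replicate 1. But miR-7a-2-3p was above the limit on 2 arrays only, so the ratio over it is mostly one of the guide over background. On T-C cell replicate 3 the guide (215) and miR-7a-2-3p (163) both read less than the mean of the blank spots (223). The log2 ratio over miR-7a-1-3p was 0.67 ± 0.48 across T-C cell and 0.52 ± 0.48 across control cell arrays (n = 5 each, SD), a difference of 0.15 (95% interval −0.45 to 0.74, limma adjusted p = 0.795). Over miR-7a-2-3p it was 1.41 ± 0.20 against 1.04 ± 0.60, a difference of 0.37 (95% interval −0.19 to 0.93, limma adjusted p = 0.480). For miR-375 the ratio of 5p over 3p was −3.37 ± 0.41 against −3.78 ± 0.42, a difference of 0.41 (95% interval −0.13 to 0.96, limma adjusted p = 0.384). Because miR-375-5p was above the limit on 0 of 10 arrays, that difference says little about the 5p arm. Whether the ratio of miR-7b changed more than those of the other hairpins was not tested.

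**Figure D3:**
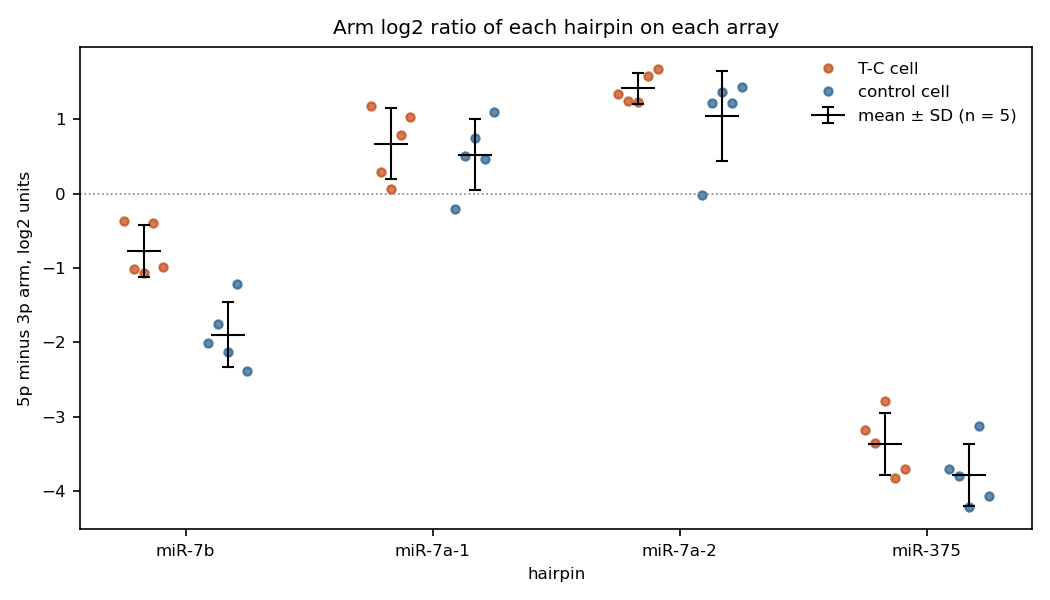
Log2 ratio of the 5p over the 3p arm on each array for the 4 hairpins, T-C cell in orange and control cell in blue, with mean ± SD of 5 arrays in black; values under 0 mean that the 3p probe was brighter. The groups are separate for miR-7b (−0.77 ± 0.35 against −1.90 ± 0.44), and miR-7a-2 has 1 low control cell array at −0.019.

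The number of the 7 probes above the detection limit was not shown to differ between the groups. It was 3.40 ± 1.34 across T-C cell and 4.40 ± 1.14 across control cell arrays (n = 5 each, SD, exact two-sided permutation p = 0.397), with 1 probe on T-C cell replicate 3 and 6 on control cell replicate 5, the arrays with the highest and lowest limits.

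Agreement between the spots of a probe bears on all these values. The first spot of miR-375-3p was brighter than the second on 10 of 10 arrays, by a median of 0.37 in log2 units, a pattern that 8.4% of the tested miRNAs showed. The groups share this offset, and the miR-375-3p difference was −0.51 with either spot alone. For miR-7b-3p the spots differed by −0.20 to 0.21, and the difference between groups was −1.06 with the first spot (limma adjusted p = 0.0411) and −1.16 with the second (0.0259).

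**Figure D4:**
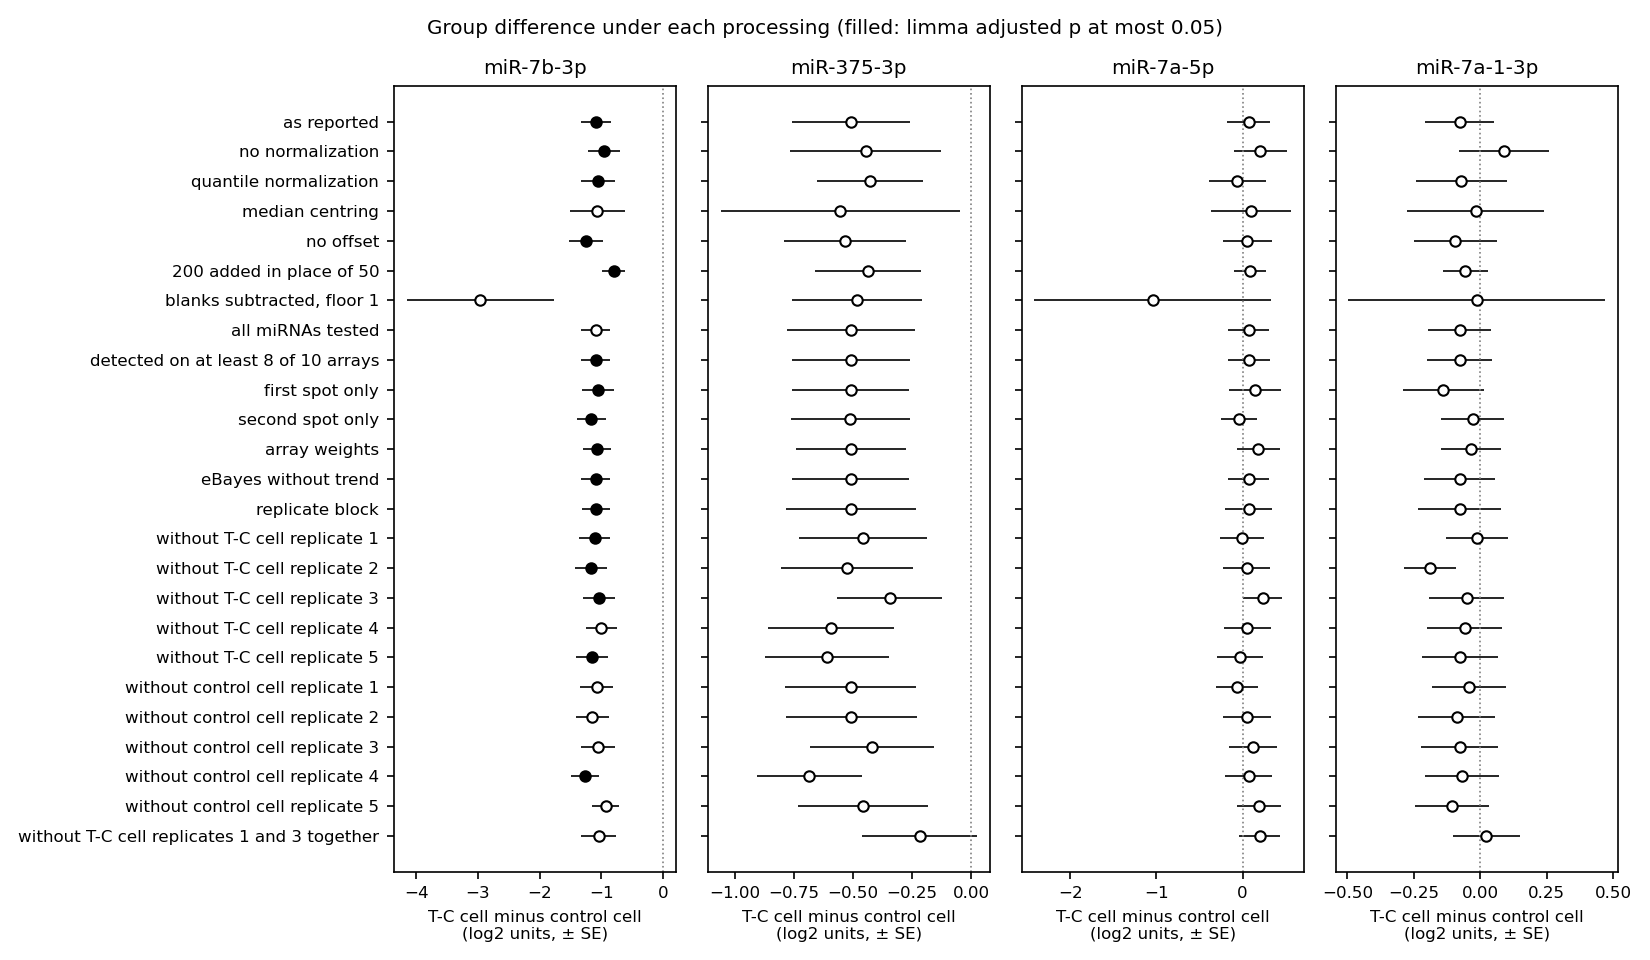
Difference in normalized level, T-C cell minus control cell (log2 units, ± SE), of the 4 tested probes as reported and under each of 24 alternative fits; filled points passed an adjusted p of 0.05, and the horizontal axes differ between panels. miR-7b-3p stays below 0 under all of them and passes in 15 of 24, while miR-375-3p stays below 0 and never passes.

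Other miRNAs of endocrine, islet and neuroendocrine cells were taken from a list of 23 names, which had 48 probes on the array. Of these, 14 were tested, and by limma 0 of the 14 rose and 0 fell. Among them 1 had an unadjusted limma p under 0.05, beside 18.3% of all tested miRNAs. Their median difference was −0.11, with a range of −0.41 to 0.23, beside a median of 0.02 over all 476 tested miRNAs. The smallest p belonged to miR-182-5p, a miRNA of sensory and epithelial cells, at 9.70 ± 0.29 across T-C cell against 10.11 ± 0.25 across control cell arrays (n = 5 each, SD, limma adjusted p = 0.267). Next came miR-200a-3p and miR-429-3p, epithelial miRNAs, with differences of −0.37 and −0.23. The brightest was miR-26a-5p, a widely expressed miRNA, with a raw intensity of 11016 ± 1834 against 10858 ± 2174 (SD, n = 5 each) and a difference of 0.04. Of the 4 neuronal markers, miR-124-3p was detected on 1 array, miR-129-5p on 2, miR-9-5p on 5 and miR-128-3p on 10. The 3 guides of the pancreatic acinar miRNAs miR-216a, miR-216b and miR-217 were detected on none. The 5 epithelial markers miR-200a-3p, miR-200b-3p, miR-200c-3p, miR-141-3p and miR-429-3p were detected on all 10 arrays, and their summed raw intensity ran from 20034 to 33955 on T-C cell arrays and from 19430 to 33905 on control cell arrays. The 4 neuronal markers, of which miR-124-3p and miR-129-5p were under the limit on most arrays, summed to 674 to 1304 and 519 to 1023. The tested ones, miR-9-5p (−0.003) and miR-128-3p (0.07), did not pass (limma adjusted p = 0.987 and 0.889). The 4 leukocyte markers, miR-142-3p, miR-142-5p, miR-150-5p and miR-223-3p, summed to 1837 to 4721 and 1496 to 1993. Among them only miR-150-5p passed, higher in T-C cell samples by 0.86 (limma adjusted p = 0.0433). The other leukocyte markers, in the order listed, had differences of 0.34, 0.39 and 0.29. None of these passed (limma adjusted p = 0.463, 0.368 and 0.599). The 3 mesenchymal markers miR-143-3p, miR-199a-3p and miR-214-3p, each detected on 10 arrays, summed to 14536 to 28280 and 18283 to 22861. miR-145-5p, also on the mesenchymal list, has no probe of that name and is not in the sum. The array's miR-145a-5p had a difference of 0.08 (limma adjusted p = 0.852). Of the endothelial markers, miR-126a-3p was detected on 10 arrays and miR-126a-5p on 1, with sums of 2873 to 5221 and 3023 to 3910. The part of any of these markers' cell types in the level of miR-375-3p or miR-7b-3p was not tested. In such bulk samples, fewer cells of a type and less RNA per cell cannot be told apart.

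The miRNAs whose profile over the 10 arrays lay closest to that of each tested member, by the mean absolute difference of levels centred on their own mean, were these. For miR-7b-3p they were miR-467a-3p (0.20), miR-34b-3p (0.26) and miR-467d-3p (0.28), against a median of 0.61 over the other tested miRNAs. All 3 were among the 30 miRNAs that fell, with differences of −1.10, −1.15 and −0.98 (limma adjusted p = 0.0400, 0.0419 and 0.0480). Their choice by likeness over the same arrays favours that direction, so it is no separate evidence. For miR-375-3p they were miR-376b-3p (0.18), miR-541-5p (0.23) and miR-467b-3p (0.23), against a median of 0.46, and none of these passed. For miR-7a-5p they were miR-19a-3p (0.18), miR-365-3p (0.19) and miR-7072-5p (0.19), against a median of 0.38. For miR-7a-1-3p they were miR-3107-5p (0.09), miR-6998-3p (0.09) and miR-28a-3p (0.10), against a median of 0.27.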

How the data were processed

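The files hold the median intensity of each spot, a linear brightness on each array as the authors deposited it, per the file headers. Array medians of the log2 values differ (6.93 to 8.38), so no scaling between arrays is visible. Per the labels' protocols a service provider extended 1 µg of total RNA with a poly(A) tail, ligated a tag and stained it with Cy3. Scanner settings and background treatment were not stated. The log2 of each intensity plus 50 was taken, spots were averaged, and arrays normalized by cyclic loess (limma 3.58.1, R 4.3.3). miRNAs above the mean plus 3 SD of the blank spots on at least 5 of 10 arrays were tested with limma (eBayes with a trend, two-sided, Benjamini-Hochberg). Arm ratios were fitted the same way over all pairs with a tested arm. Tests were checked on simulated levels and arm ratios, drawn independently for each miRNA or pair. These held no spots, background or normalization step and no deviation shared by the miRNAs of an array, so the check does not cover those. The permutation test was exact and two-sided, over the 252 splits of 5 against 5. Positions are from matching array sequences to GENCODE M21 hairpins on GRCm38 (Python 3.11.15). All 6 members with a RefSeq entry (GRCm38.p6) were matched by name, and 5 had the array's sequence; RefSeq's miR-7b-5p has 24 bases. Members, the endocrine list and tests were chosen with earlier results of these data known. Named are all 7 members, the 3 nearest profiles of each tested member, list members that passed, the 3 with the smallest p and the brightest, and the cell type markers.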

Additional observations from a re-analysis of the deposited data

Results flagged for a closer look

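In each group of 5 arrays the highest and lowest values of the 7 levels and the 4 arm ratios were examined for an array far from the others; 2 of these 22 sets had one, where chance gives about 1 in 20. For miR-7b-5p in control cell samples, replicate 5 stood at 7.73 with the next array at 7.54; it is the array with the lowest detection limit, 64.0. For the arm ratio of miR-7a-2 in control cell samples, replicate 1 stood at −0.019 with the next array at 1.22. On that array the first and second spots read 154 and 306 for miR-7a-5p and 116 and 318 for miR-7a-2-3p.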

How the results depend on the processing

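Over 24 alternative fits the difference of miR-7b-3p was negative in 24, ran from −2.97 (blanks subtracted) to −0.80 (200 added in place of 50) and passed in 15, that of miR-375-3p was negative in 24 and passed in none, and that of miR-7a-5p ran from −1.04 to 0.23. The 5p over 3p ratio of miR-7b was higher in T-C cell samples in 24 fits and passed in 14. The count of miRNAs that passed was 37 as reported. It was 14 under median centring (1 higher, 13 lower), 3 with blanks subtracted and 1 with all miRNAs tested (126 at an unadjusted p of 0.05). Without single arrays in turn it ran from 1 to 44, being 12 on leaving out T-C cell replicate 1, 2 on leaving out replicate 4 of that group and 1 to 3 on leaving out control cell replicate 1, 2, 3 or 5, and without T-C cell replicates 1 and 3 together, chosen after seeing the data, it was 1. The count of arm pairs that passed was 31 as reported, 7 without normalization, 7 under median centring, 0 with blanks subtracted (48 at an unadjusted p of 0.05 with limma), 2 with all pairs tested, 2 to 42 without single arrays and 2 without T-C cell replicates 1 and 3. The cause of these changes was not tested. The split of the 37 calls was 7 higher and 30 lower, against 14 and 33 with quantile normalization. Titles give both groups the numbers 1 to 5, and the labels state no pairing by them. Same-numbered samples showed no common deviation as a set (correlations of −0.20 to 0.26). So few correlations cannot exclude a pairing. With the replicate block, 22 miRNAs and 9 arm pairs passed, miR-7b-3p among them (limma adjusted p = 0.0435). Background limits what can be said of miR-7b-5p, miR-7a-2-3p and miR-375-5p.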

Other observations

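Of the 30 miRNAs that fell in T-C cell samples, 28 hold the letters ACC, against 20.5% of all 1892 miRNAs of the array and 26.1% of the 476 tested. The 2 without it were miR-7b-3p and miR-34b-3p, which is also the second nearest to miR-7b-3p in profile, and 0 of the 7 miR-375 and miR-7 probes hold it. ACC was searched on the listed strand of each mature sequence alone. The feature was noticed in these data, so this is a description.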
